A study of Homo sapiens with 3 samples.

Results

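The 4 mature miRNAs described here are the arms of 2 neighbouring hairpins, hsa-miR-224-5p, hsa-miR-224-3p, hsa-miR-452-5p and hsa-miR-452-3p, written below without the species prefix. They were taken by name, as both arms of miR-224 and miR-452, from the 2588 mature miRNAs of the deposited tables, and each was found in the tables at 1 genomic locus. They were picked because both hairpins lie within the GABRE gene and are known to be raised in hepatocellular carcinoma. The rule used no value measured in these libraries, but earlier results of these data were known when it was set. Small RNA had been sequenced from the parental, unmodified cells of 3 cancer-derived cell lines. The thyroid carcinoma line was C643, the ovarian carcinoma line ES-2 and the hepatocellular carcinoma line Huh-7. RNA was collected 48 h after seeding, and 50 ng of total RNA entered each library. Each line was represented by 1 library, so no difference between lines has a replicate check, and all intervals given below are 95% intervals that cover counting error only.

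A miRNA hairpin is cut out of a longer transcript in the nucleus and trimmed to a short duplex in the cytoplasm. One strand of the duplex, from the 5p or the 3p arm, is usually kept in an Argonaute protein, and the bases near its 5′ end, the seed, pair with target mRNAs. The other strand is usually degraded. GABRE encodes the epsilon subunit of the GABA-A receptor, a chloride channel opened by the neurotransmitter GABA. miR-224 is among the miRNAs most often described as raised in liver tumours relative to normal liver, and miR-452 is its neighbour in the same gene. No normal liver was analysed here, so the values below place the liver line only against the other lines.

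The mature sequences are shown so that the seeds of the members can be compared. They come from RefSeq on GRCh38.p14, run 5′ to 3′ and carry the seed, bases 2 to 8, in capitals.
miR-224-5p: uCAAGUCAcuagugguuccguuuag
miR-224-3p: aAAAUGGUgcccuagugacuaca
miR-452-5p: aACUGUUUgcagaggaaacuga
miR-452-3p: cUCAUCUGcaaagaaguaagug
The 4 seeds differed from each other. Those of miR-224-5p, miR-224-3p and miR-452-3p were found in no other mature miRNA of the RefSeq table. The seed of miR-452-5p was shared with miR-4676-3p, from chromosome 10, and with miR-892c-3p, also from chromosome X, which are shown for comparison.
miR-4676-3p: cACUGUUUcaccacuggcucuu
miR-892c-3p: cACUGUUUccuuucugagugga
miR-452-5p supplied nearly all reads that carried this seed. Its reads numbered 2771 in C643, 197 for ES-2 and 798 for Huh-7. miR-4676-3p had 49, 8 and 8 reads in the same order, and miR-892c-3p had 0 in every library.

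The precursors show where the 2 arms sit. In the hairpins below, also from RefSeq, the mature arms are in capitals.
MIR224: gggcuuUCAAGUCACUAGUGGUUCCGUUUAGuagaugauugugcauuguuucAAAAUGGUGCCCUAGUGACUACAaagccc
MIR452: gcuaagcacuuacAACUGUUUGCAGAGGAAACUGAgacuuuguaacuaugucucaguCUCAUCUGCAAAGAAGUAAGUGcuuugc
The MIR224 hairpin, 81 bases long, lies on the minus strand of chromosome X at chrX:151958578-151958658 (GRCh38). The MIR452 hairpin, 85 bases long, lies upstream of it on the same strand at chrX:151959628-151959712. The space between them was 969 bases. In GENCODE 29 both fell within intron 6 of the 9-exon coding transcript GABRE-201, and both were also covered by exon 1 of GABRE-209, a transcript that retains the intron. The hairpins were not close copies of each other. In a global alignment 49 of 99 columns were identical (49.5%), and the 5p arms matched in 11 of 27 columns (40.7%). Their predicted minimum free energies were -37.3 kcal/mol for MIR224 and -41.3 kcal/mol for MIR452.

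The miRNA reads, recovered from the deposited values and summed over all loci, numbered 8183100 for C643, 1663181 for ES-2 and 2173587 for Huh-7. A read matching several loci may count more than once, since its treatment was not given. A miRNA's abundance is given as its share, its percentage of all miRNA reads of its own library, which no factor applied between libraries can change. For a miRNA with no reads the upper limit was taken as the share of 3 reads, which was 3.67e-05% for C643, 0.00018% for ES-2 and 0.000138% for Huh-7. Beside the labelled origin of Huh-7, 5 miRNAs linked to hepatocytes summed to 18.4% of reads in Huh-7, 0.0750% in C643 and 0.0139% in ES-2. All 5 were higher in Huh-7 than in either other line by at least 4-fold. By share, 41.4% of 437 miRNAs were so against ES-2 and 35.5% of 442 against C643. The list of 5 was chosen with earlier results of these data known, so it is not an independent check of origin. The 7 miRNAs typical of blood cells summed to 0.00246% for C643, 0.0486% for ES-2 and 0.127% for Huh-7, with miR-144-3p at 0 reads in every library. Single markers carried these sums and differed between the lines, since miR-486-5p gave 2766 of 2769 reads in Huh-7, and miR-142-3p and miR-142-5p gave 542 and 255 of 809 reads in ES-2. Whether they bear on the members was not tested. The 4 muscle miRNAs summed to at most 0.00129%, with miR-133b and miR-206 at 0 reads in every library.

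miR-224-5p, the main product of the MIR224 hairpin, was the most abundant of the 4 members in every line, and its share was highest in the thyroid line rather than in the liver line. It had 29973 reads in C643, a share of 0.366% (Wilson interval, 0.362 to 0.370%). ES-2 had 1684 reads, a share of 0.101% (0.0965 to 0.106%). In Huh-7 it had 4129 reads, a share of 0.190% (0.184 to 0.196%). The order was thus C643, Huh-7 and ES-2, and no pair of neighbours in that order overlapped within counting error. By share, miR-224-5p was 1.93-fold higher in C643 than in Huh-7 (exact binomial interval, 1.87 to 1.99). It was 1.88-fold higher in Huh-7 than in ES-2 (1.77 to 1.99). Of the 4, miR-224-5p made up 89.8% of the members' reads in C643, 87.9% in the ovarian line and 80.6% in the liver line.

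miR-452-5p, the main product of the MIR452 hairpin, was about as abundant in C643 as in Huh-7 and lower in ES-2. Its share was 0.0339% in C643 (0.0326 to 0.0351%) and 0.0367% in Huh-7 (0.0343 to 0.0394%), against 0.0118% in ES-2 (0.0103 to 0.0136%). Huh-7 lay 1.08-fold above C643, with an interval of 1.001 to 1.17 that only just cleared equality. With reads averaged over the loci of each mature miRNA instead of summed, the order was opposite, at 0.0408% in C643 and 0.0405% in Huh-7. Huh-7 lay 3.10-fold above ES-2 (2.65 to 3.64) and C643 2.86-fold above ES-2 (2.47 to 3.32).

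miR-452-3p, the lesser arm of the same hairpin, followed the same order of lines. C643 gave 583 reads, ES-2 30 reads and Huh-7 187 reads. These were shares of 0.00712% (0.00657 to 0.00773%), 0.00180% (0.00126 to 0.00257%) and 0.00860% (0.00746 to 0.00993%). The arm was 4.77-fold higher in Huh-7 than in ES-2 (3.23 to 7.27), 3.95-fold higher in C643 than in ES-2 (2.74 to 5.91) and 1.21-fold higher in Huh-7 than in C643 (1.02 to 1.43).

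miR-224-3p, the strand opposite miR-224-5p, was the scarcest of the 4 in every line. C643 gave 34 reads, ES-2 5 reads and Huh-7 11 reads. The shares, 0.000415% (0.000297 to 0.000581%), 0.000301% (0.000128 to 0.000704%) and 0.000506% (0.000283 to 0.000906%), could not be told apart at this depth. The ratio of Huh-7 to ES-2 was 1.68, with an interval of 0.539 to 6.18 that leaves room for a difference in either direction.

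Summed, the 4 members took 0.408% of miRNA reads in C643 (0.403 to 0.412%), 0.236% in Huh-7 (0.229 to 0.242%) and 0.115% in ES-2 (0.110 to 0.120%). By share the liver line was thus intermediate. Its place above ES-2 depended on the scale, since on the deposited scale Huh-7 exceeded ES-2 only 1.08-fold (1.03 to 1.144). The deposited values were also rescaled so that the median log2 ratio of the 223 miRNAs at 10 or more in both lines was 0. The log2 difference, ES-2 minus Huh-7, was then 0.16, with Huh-7 lower.

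**Figure D1:**
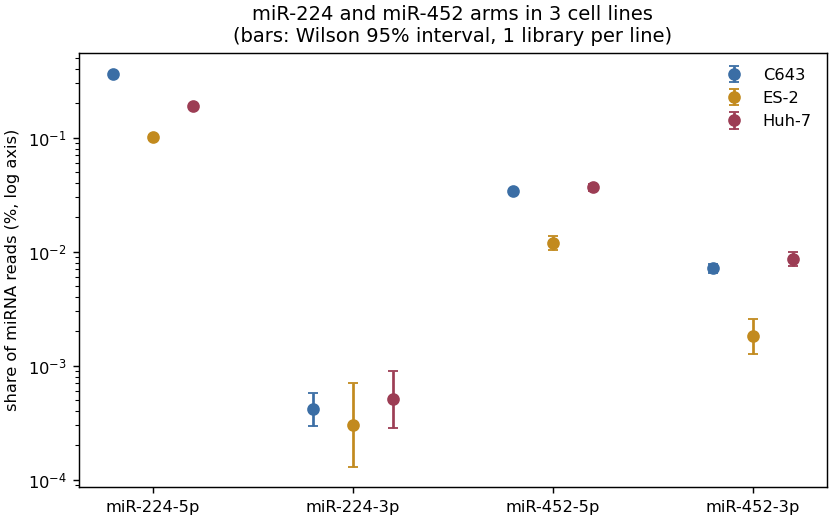
Share of all miRNA reads of the library (percent, log axis) for the 4 members in C643, ES-2 and Huh-7, 1 library per line, with Wilson 95% intervals of counting error as bars. miR-224-5p sits highest in C643 at 0.366%, miR-452-5p is near 0.0339% in C643 and 0.0367% in Huh-7, and the wide bars of miR-224-3p overlap between all lines.

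Against the other miRNAs of the same library, miR-224-5p was a moderately abundant species. It ranked 33 among the miRNAs of C643, 61 among those of ES-2 and 55 among those of Huh-7, and 94.9%, 90.0% and 93.6% of the miRNAs detected there had fewer reads. miR-21-5p, an abundant miRNA of many tumours, had 78.1 reads for each read of miR-224-5p in C643, 175 in Huh-7 and 279 in ES-2. miR-452-5p ranked 101 in C643, 135 in the ovarian line and 115 in the liver line, and miR-452-3p ranked 169, 244 and 193 in that order. miR-224-3p ranked 410, 393 and 480, with 4, 21 and 15 miRNAs, respectively, tied at its number of reads.

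**Figure D2:**
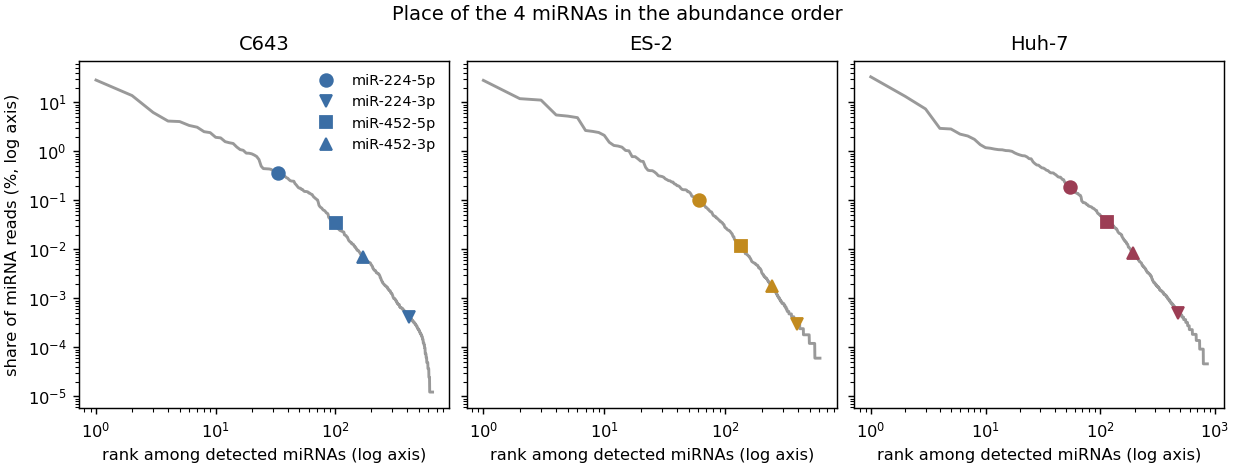
Share of library reads (percent, log axis) against rank (log axis) for all miRNAs with reads in each line, with the 4 members marked. miR-224-5p lies at rank 33 in C643, rank 61 for ES-2 and rank 55 for Huh-7, while miR-224-3p lies in the tail at ranks 410, 393 and 480.

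ES-2 and Huh-7 share a deposited table and were compared on its own scale, log2(value + 1), which asks whether the ovarian and the liver line differ in the members once the submitters' own library factor is applied. On that scale miR-224-5p was level in the 2 lines, with values of 1169 for ES-2 and 1163 for Huh-7, a ratio of 1.01 (0.950 to 1.06). miR-452-5p was at 137 in ES-2 and 225 in Huh-7, 1.64-fold higher in the liver line (1.40 to 1.93). miR-452-3p was at 20.8 and 52.7, 2.53-fold higher in the liver line (1.71 to 3.85). The direction for miR-224-5p thus depended on the scale, since its share favoured Huh-7. Both arms of miR-452, in contrast, were higher in Huh-7 on the deposited scale and by share. They were also higher there with the median ratio of miRNAs at 10 or more in both lines set to 0. The 2 scales differ because the deposited ES-2 column sums to 1.89 times the Huh-7 column.

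The members were then set beside all miRNAs compared between these 2 lines. miR-224-3p stayed under the minimum value of 10 and was not compared. On the deposited scale 0 of the other 3 members reached a 4-fold difference between ES-2 and Huh-7, while 47.2% of the 390 miRNAs compared did, 19.5% with ES-2 higher and 27.7% with Huh-7 higher. The log2 differences, ES-2 minus Huh-7, were 0.01 for miR-224-5p, -0.71 for miR-452-5p and -1.30 for miR-452-3p, beside a median of -0.54 over all miRNAs compared. A smaller absolute difference was found in 0.51% of miRNAs for miR-224-5p, in 20.8% for miR-452-5p and in 40.5% for miR-452-3p. These places depended on the scale, since by share they were 17.2%, 34.3% and 49.9%. By share 1 of the 3 members, miR-452-3p, was at least 4-fold higher in Huh-7, with a log2 difference of -2.19, as were 41.4% of the 437 miRNAs compared on that scale (14.9% were higher in ES-2, 56.3% in either direction). By share the median of all miRNAs was itself -1.65, so that miR-224-5p, at -0.91, lay above it, miR-452-5p, at -1.62, lay on it, and miR-452-3p lay below it. An exact binomial test on the reads, adjusted by Benjamini-Hochberg, compares these libraries and not the cell types. On the deposited scale it called both arms of miR-452 higher in Huh-7 and did not call miR-224-5p, with 53.8% of all miRNAs compared called higher in Huh-7 and 34.4% in ES-2. With library totals in place of the deposited scale it called all 3 members higher in Huh-7, miR-224-5p included, as it did 69.8% of the miRNAs compared, with 22.9% called higher in ES-2.

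**Figure D3:**
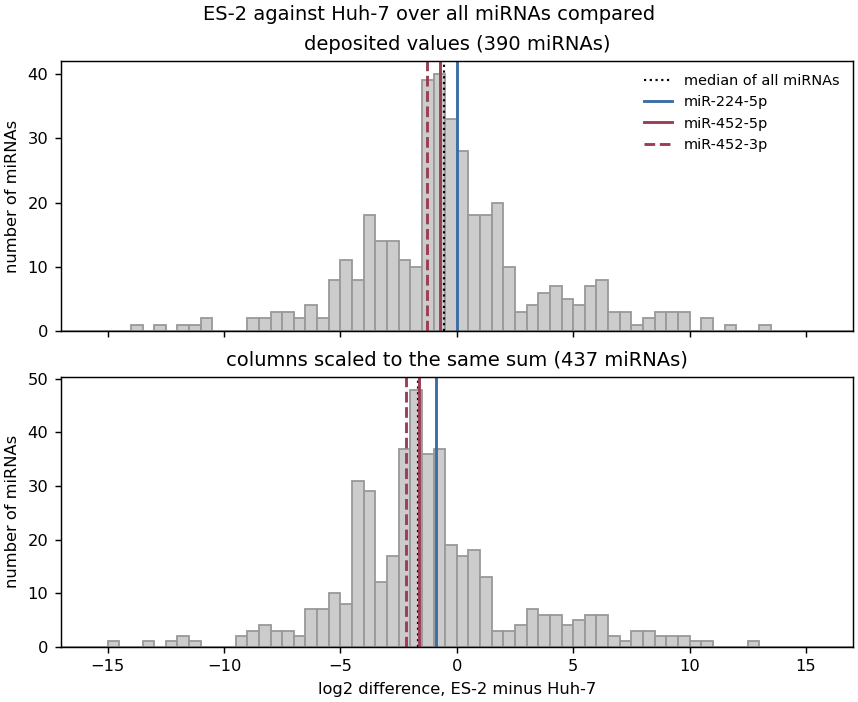
Distribution of the log2 difference, ES-2 minus Huh-7, over all miRNAs compared, on the deposited scale and by share, with the 3 members that passed the minimum marked. The coloured lines place miR-224-5p at 0.01 and -0.91 and miR-452-3p at -1.30 and -2.19 on the respective scales, close to the middle of the 2 distributions.

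C643 was deposited in a table of its own, so it was set beside the other lines by share. Between C643 and ES-2 the log2 differences were 1.85 for miR-224-5p, 1.51 for miR-452-5p and 1.92 for miR-452-3p, beside a median of 0.39 over all miRNAs compared. All 3 were thus higher in C643, and 0 of the 3 reached 4-fold, against 19.5% of 348 miRNAs with C643 at least 4-fold higher and 9.48% with ES-2 higher, 29% in all. Between C643 and Huh-7 the differences were 0.95, -0.12 and -0.27, beside a median of -1.04. Here too 0 of the 3 reached 4-fold, against 17.4% of 442 miRNAs with C643 higher and 35.5% with Huh-7 higher, 52.9% in all. On the deposited scale 0 of the 3 reached 4-fold in either comparison as well, beside 15.4% of 351 miRNAs higher in C643 and 10.8% higher in ES-2 (26.2% in all), and beside 22.6% of 399 miRNAs higher in C643 and 25.1% higher in Huh-7 (47.6% in all). For both arms of miR-452 the side on which C643 and Huh-7 fell was opposite on the deposited scale, where miR-452-5p was at 325 and miR-452-3p at 68.3 in C643.

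Among miRNAs with more than 3 reads in every line, the range of the members across all 3 lines was ordinary. The set was also limited to miRNAs that reached the minimum of 10, on the scale of shares, in some line. The highest share exceeded the lowest 3.62-fold for miR-224-5p, 3.10-fold for miR-452-5p and 4.77-fold for miR-452-3p, beside a median of 4.55-fold over 304 miRNAs. A smaller range was found in 38.5%, 29.6% and 52.6% of these miRNAs, respectively. Left out were miRNAs absent from a line, such as miR-767-5p with 0 reads in Huh-7. The median and these places therefore do not describe all miRNAs.

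The relation of the 2 hairpins to each other needs no scaling between libraries, since both are read in the same library. Per read of miR-452-5p there were 10.8 reads of miR-224-5p in C643 (10.4 to 11.2), 8.55 in ES-2 (7.37 to 9.96) and only 5.17 in the liver line (4.80 to 5.59). Huh-7 thus had the least miR-224-5p relative to miR-452-5p. The ratio in C643 was 2.09 times that in Huh-7 (1.92 to 2.28), the ratio in ES-2 was 1.65 times that in Huh-7 (1.40 to 1.96), and the ratio in C643 was 1.27 times that in ES-2 (1.08 to 1.48). All 3 pairs of lines differed beyond counting error, in intervals not widened for the number of pairs. With both arms summed the ratios were 8.95, 7.44 and 4.20, in the same order of lines.

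The arms of the 2 hairpins were used very unequally. For miR-224 there were 882 reads of the 5p arm per read of the 3p arm in C643 (631 to 1273), whereas ES-2 had 337 (144 to 1039) and Huh-7 had 375 (210 to 753). For miR-452 the ratios were 4.75 in C643 (4.35 to 5.21), 6.57 for ES-2 (4.46 to 9.99) and 4.27 for Huh-7 (3.63 to 5.03). The 3p arm therefore made up 0.113%, 0.296% and 0.266% of the reads of the miR-224 hairpin and 17.4%, 13.2% and 19.0% of the reads of the miR-452 hairpin. In each line the intervals of the 2 hairpins were far apart. Between lines the arm ratio of miR-452 differed little. The value in ES-2 was 1.54 times that in Huh-7 (1.01 to 2.42), and the other 2 pairs of lines had intervals that included 1. For miR-224 the ratio in C643 was 2.35 times that in Huh-7 (1.07 to 4.75), a comparison that rests on 34 and 11 reads of the 3p arm, and the pairs with ES-2 had intervals that included 1. C643 had the most reads but 649 miRNAs detected, fewer than the 858 of Huh-7. Some lesser arms had 0 reads in C643 but reads in both other lines, and for some the reverse held. Whether this bears on the arm ratios of C643 was not tested.

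Among hairpins with at least 50 reads over both arms, miR-452 was one of the less one-sided. C643 had 210 such precursors, ES-2 had 132 and Huh-7 had 181, of which only 22.9%, 17.4% and 19.9% had a larger share of their lesser arm than miR-452. For miR-224 the corresponding shares were 63.3%, 68.9% and 71.3%. The median lesser arm took 1.51%, 1.81% and 3.08% of the reads of its precursor. With a minimum of 10 reads, which was the main setting and adds less deeply read hairpins, 294, 188 and 280 precursors were compared. Of these 18.7%, 22.9% and 25.4% were less one-sided than miR-452, and 49.0%, 64.4% and 64.6% less than miR-224. The median lesser arm was then 0.0337%, 2.02% and 3.175%, so that in C643 it lay under the 0.113% of miR-224, whereas in the other lines and at 50 reads it lay between the values of the 2 hairpins.

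**Figure D4:**
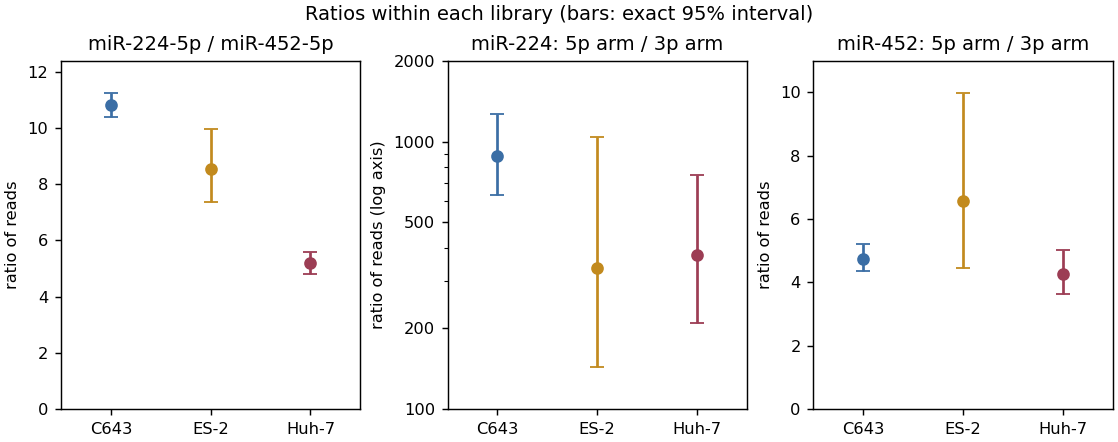
Ratios of reads within each library for miR-224-5p to miR-452-5p, miR-224-5p to miR-224-3p and miR-452-5p to miR-452-3p in C643, ES-2 and Huh-7, with exact 95% intervals of counting error. The first ratio is 10.8 in C643 and 5.17 in Huh-7 with intervals that do not meet, while the intervals of the miR-452 arm ratio overlap between lines.

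The nearest miRNA genes on chromosome X did not share the presence of the GABRE pair in every line. Within GABRA3, which encodes an alpha subunit of the same receptor and lies on the same strand, GENCODE places MIR105-1, MIR767 and MIR105-2 in intron 1 of the coding transcript, 433.6 to 435.8 kb from the start of MIR224. miR-767-5p had 1461 reads in C643, 69 for ES-2 and 0 for Huh-7. miR-105-5p, which is read from 2 loci, had 911, 30 and 0 reads. Both were therefore detected in the thyroid and the ovarian line and not in the liver line, where all 4 GABRE miRNAs were detected. By share miR-767-5p was at least 129-fold lower in Huh-7 than in C643 and at least 30.1-fold lower than in ES-2, computed against 3 reads in Huh-7. It was 4.30-fold higher in C643 than in ES-2 (3.38 to 5.56), a difference in the same direction as that of miR-224-5p. The 4 miRNAs of GABRA3 summed to 0.0292% of reads in C643 and 0.00625% in ES-2.

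The 5 nearest annotated precursors on each side of MIR224, 10 in all, were otherwise silent or nearly so. MIR2114 and MIR4330 had 0 reads in every library. miR-514a-5p, from the precursors MIR514A1, MIR514A2 and MIR514A3, had 10 reads in Huh-7 and 0 in the others, and miR-3202 had 4 reads in Huh-7 and 0 in the others. Only MIR452 and the 3 precursors in GABRA3 gave more than 10 reads of an arm.

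**Figure D5:**
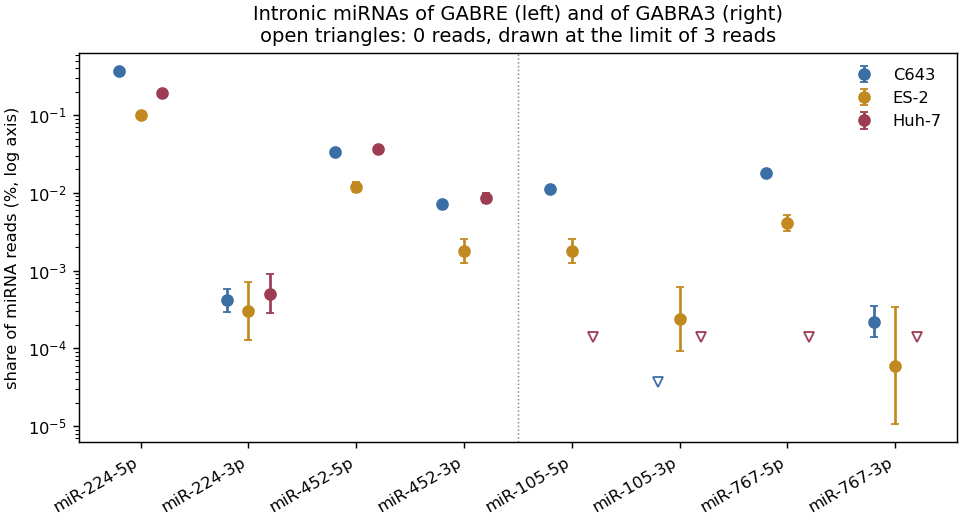
Shares of library reads (percent, log axis) of the 4 miRNAs of GABRE and the 4 of GABRA3 in C643, ES-2 and Huh-7, with Wilson 95% intervals of counting error; miRNAs with 0 reads are drawn at the upper limit that 3 reads allow. miR-767-5p and miR-105-5p are well above the limit in C643 and ES-2 and at it in Huh-7, whereas miR-224-5p is at 0.190% there.

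Within the reads of chromosome X, the pair took its largest part in the liver line, where the total of these reads was lowest. As a share of all miRNA reads the pair was highest in C643, at 0.408% against 0.236% in Huh-7. The 166 miRNAs whose loci all lie on this chromosome summed to 5.95% of reads for C643, 9.04% for ES-2 and 1.97% for Huh-7. Of those reads the 4 members made up 6.86%, 1.27% and 12.0%. miR-224-5p was the X-linked miRNA of rank 3 in C643, rank 7 in ES-2 and rank 2 in Huh-7. In Huh-7 only miR-222-3p had more reads, and the 3 that followed miR-224-5p were miR-221-3p, miR-532-5p and miR-500a-3p. miR-222-3p, made with miR-221-3p from 1 cluster and linked to proliferation in many tumours, had shares of 3.12% in C643 and 5.54% in ES-2 but 0.413% in Huh-7. miR-221-3p had 1.504%, 2.43% and 0.157% in the same order. Together they made up most X-linked reads in C643 and ES-2 but not in Huh-7. The members' part of the X-linked reads therefore reflects the level of this cluster as well as their own. Of the other 162 X-linked miRNAs, 40 passed the minimum in the ES-2 and Huh-7 comparison of shares. ES-2 was at least 4-fold higher for 10 of them and Huh-7 for 18, with a median log2 difference of -1.74, beside -1.65 over all miRNAs, of which 14.9% had ES-2 higher and 41.4% had Huh-7 higher. On the deposited scale the counts were 13 and 12 of 38, with a median of -0.84 beside -0.54 over all miRNAs, so the side to which they leaned depended on the scale.

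Other miRNAs described as raised in hepatocellular carcinoma did not rank the lines in 1 way either. The list held 15 miRNAs besides the members, and all 15 passed the minimum in the comparisons with Huh-7. By share 9 of them were at least 4-fold higher in Huh-7 than in C643 and 2 were at least 4-fold higher in C643, with a median log2 difference, C643 minus Huh-7, of -2.46, beside -1.04 over all miRNAs, of which 35.5% were higher in Huh-7 and 17.4% in C643. On the deposited scale the counts were 6 higher in Huh-7 and 2 in C643, beside 25.1% and 22.6% of all miRNAs. miRNAs of the same cluster were counted separately, so these counts are not of independent miRNAs. miR-183-5p, one of a cluster with miR-182-5p and miR-96-5p, had shares of 0.102% in C643, 0.176% in the ovarian line and 0.562% in the liver line. miR-93-5p, from the miR-106b cluster that also holds miR-25, had shares of 0.247%, 0.412% and 1.37%. miR-221-3p went the other way, with 1.504%, 2.43% and 0.157%. The share of miR-224-5p was likewise higher in C643 than in Huh-7, though by less than 4-fold. Between ES-2 and Huh-7 the list had 2 miRNAs with ES-2 at least 4-fold higher by share and 3 with Huh-7 higher, beside 14.9% and 41.4% of all miRNAs, with a median of -1.496 beside -1.65.

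Of 16 miRNAs described as lowered in hepatocellular carcinoma, 15 could be compared between C643 and Huh-7 by share. C643 was at least 4-fold higher for 5 and Huh-7 for 3, with a median of -0.12, beside 17.4% and 35.5% of all miRNAs and their median of -1.04. On the deposited scale the counts were also 5 and 3, beside 22.6% and 25.1% of all miRNAs. The median there was 0.49, beside -0.21 over all miRNAs, so its sign depended on the scale. Between ES-2 and Huh-7 14 could be compared, of which 4 were higher in each line, with a median of 0.51, beside 14.9% of all miRNAs higher in ES-2, 41.4% higher in Huh-7 and their median of -1.65. miR-122-5p, a miRNA characteristic of hepatocytes and a member of that list, took 13.3% of all reads of the liver line. miR-199a-3p had shares of 0.309% in C643 and 0.404% in ES-2 but 0.00120% in Huh-7.

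The 5 miRNAs whose pattern over the 3 lines lay nearest to that of miR-224-5p were miR-25-5p, miR-369-3p, miR-151a-5p, miR-30b-3p and miR-1304-5p. Likeness was the Euclidean distance between log2 values of reads per 1000000 plus 1, centred on the mean of the 3 lines, over 422 miRNAs. The distances were 0.128, 0.190, 0.194, 0.346 and 0.349 log2 units, over 3 libraries only. miR-151a-5p was the one of them closest in level, with shares of 0.408% in C643, 0.136% in the ovarian line and 0.224% in the liver line. miR-25-5p had 5431, 269 and 686 reads in the same order. Others were sparse, since miR-369-3p had 8 reads in ES-2 and miR-30b-3p had 6. The neighbours of miR-224-5p in the gene were less like it, with miR-452-5p at place 30 (distance 0.767) and miR-452-3p at place 51 (1.02). With a minimum of 100 in place of 10, or a pseudocount of 10, 2 of the 5 stayed among the nearest 5, miR-25-5p and miR-151a-5p.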

How the data were processed

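Small RNA was sequenced from 1 library each of C643, ES-2 and Huh-7 (TRIZOL RNA, NEXTflex small RNA kit, Illumina HiSeq). The submitters' processing notes name cutadapt 1.14, Bowtie2 2.3.3, SAMtools 1.5, featureCounts 1.5.3, edgeR 3.18.1 and hg38, without roles. How reads matching several loci were treated, the version of the miRNA annotation and any use of molecular identifiers were not given in the sources used here. The authors deposited 2 tables of 2813 loci whose values are a signal named CPM, reads per locus times 1 factor per library, and the columns did not sum to 1000000 although plain CPM had been assumed in the design.

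Each value was a whole multiple of 1 read (0.117 units in C643, 0.694 in ES-2, 0.282 in Huh-7), with 100% of nonzero values whole within 0.001 times the square root of the reads. Loci of the same mature miRNA were added up. Shares carry Wilson intervals, and folds and ratios exact binomial (Clopper-Pearson) intervals. If reads are PCR copies, these are too narrow. Libraries were compared as log2(value + 1), which understates folds of scarce miRNAs, where either library reached a value of 10, a log2 difference of 2 counting as 4-fold. Hairpins were folded with RNAfold 2.7.2, and statistics used Python 3.11.15 with scipy 1.17.1. Scripts were tested on simulated data.

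The members and lists were chosen with earlier results of these data known. Named miRNAs were the members, the 5 nearest in pattern, seed partners, list members (at most 4 examples for each cancer list), the 5 X-linked miRNAs highest in Huh-7 and the 5 nearest precursors per side.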

Additional observations from a re-analysis of the deposited data

How the results depend on the processing

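No paired analysis was possible because there were no replicates, and for the same reason no setting left a library out. The depth of ES-2, where miR-224-3p had 5 reads, limits what can be said of that arm.

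The summed share of the 4 members in C643, ES-2 and Huh-7 was 0.391%, 0.133% and 0.144% of 1000000 deposited units, 0.571%, 0.160% and 0.353% with miR-21-5p left out of the total, and 0.491%, 0.135% and 0.260% with the mean over loci, with C643 first, Huh-7 second and ES-2 last each time. The log2 difference of the summed members, ES-2 minus Huh-7, was -0.12 as deposited, -1.03 with columns scaled to 1000000 and 0.16 with the median ratio set to 0. Scaling the columns turned miR-224-5p from 0.01 to -0.91 and miR-224-3p from 0.13 to -0.60. With both arms summed the ratio of miR-224 to miR-452 was 8.95 in C643 and 4.20 in Huh-7. The causes were not tested, beyond the scaling itself.

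Counts of miRNAs at least 4-fold apart moved with the settings. The exact binomial test on reads sets no fold threshold, so its counts below are a different measure. Between ES-2 and Huh-7 the 76 higher in ES-2 became 48 at a minimum of 100 and 134 by the exact binomial test on reads. The 108 higher in Huh-7 became 60 with a pseudocount of 10, 42 at a minimum of 100, 180 without a minimum, 181 with scaled columns and 210 by the binomial test, or 305 with library totals, a setting chosen after seeing the data. Between C643 and ES-2 on the deposited scale the 54 higher in C643 became 22 with a pseudocount of 10, 18 at a minimum of 100, 123 without one and 115 at 2-fold, and the 38 higher in ES-2 became 24, 16, 82 and 89, with 18 at 8-fold. Between C643 and Huh-7 the 90 higher in C643 became 54 at a minimum of 100 and 141 without one, and the 100 higher in Huh-7 became 55 with a pseudocount of 10, 44 at a minimum of 100, 173 without one and 157 both at 2-fold and with scaled columns. The other 25 values computed under alternatives for these results moved by at most 1.5 times (counts, of which 76 became 114 at 2-fold, exactly that factor) or stayed within the counting interval. For single miRNAs, 31 values stayed so, 39 moved without a change of sign and 2, given above, changed sign.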

Other observations

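The ratio of miR-224-5p to miR-452-5p was set beside those of other neighbouring hairpins, a comparison chosen after the values were seen. It covered 17 pairs of neighbouring hairpins on 1 strand and at most 10 kb apart, including miR-224 and miR-452. Each hairpin was represented by 1 arm, which had 1 locus and at least 50 reads in every line. That arm was not always the more abundant one, since miR-106b-3p had 2111 reads in Huh-7 against 2824 of miR-106b-5p. The highest of the 3 ratios exceeded the lowest 2.09-fold for miR-224-5p and miR-452-5p, and 7 of the pairs had a smaller range, beside a median of 2.44-fold. The ratio moved least for miR-23b-3p and miR-27b-3p, by 1.11-fold, and by 1.26-fold for the X-linked pair miR-221-3p and miR-222-3p. It moved most for miR-99a-5p and let-7c-5p, by 56.6-fold.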
